A study of Mus musculus with 2 samples.

Results

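Retinoic acid, the active form of vitamin A, was examined through 9 genes for its receptors, binding proteins and metabolic enzymes: Rara, Rarb, Rarg, Rxra, Crabp1, Crabp2, Dhrs3, Cyp26b1 and Stra6. They were taken as every probe set whose platform annotation names exactly 1 of these genes, which gave 12 probe sets of the 34945 that name a single gene and 9 of 18193 genes. No probe set named a member together with another gene. The lung epithelium was isolated from ICR mouse fetuses (embryonic day 11) and grown inside Matrigel, a gel of basement membrane proteins. Both groups were first cultured for 4 days with FGF10, a growth factor of lung budding, and CHIR99021, which blocks glycogen synthase kinase 3 and so switches on Wnt signalling. The pieces were then re-embedded and kept for 2 more days with FGF10, in one group with CHIR99021 and in the other without it. There was 1 array per condition, so the comparison is of continued exposure with withdrawal, the spread between cultures is unknown, and no test was run. How many embryos or cultures went into an array is not given in the sources used here.

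Cells take up retinol, carried in blood by Rbp4, through the membrane receptor Stra6, and oxidise it first to retinaldehyde and then to retinoic acid. Dhrs3 turns retinaldehyde back into retinol, Crabp1 and Crabp2 carry retinoic acid inside the cell, and Cyp26 enzymes degrade it. Retinoic acid binds a receptor of the Rar family, which sits on DNA as a pair with an Rxr receptor, at repeats of a short half-site. Rarb is itself a classic target of the pathway. In the lung, retinoic acid is known to be needed for the first buds to form, and its signalling is known to be low at the distal tips of the growing tree.

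The 250 bases before the annotated start of Rarb are shown because Rarb had the lowest ratio of the members and because this stretch alone, among the promoters of members, held a pair of half-sites spaced as in a classic response element. The capitals mark the element, and the sequence is from RefSeq (GRCm38.p6, minus strand, chr14:16575477-16575726).

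Rarb: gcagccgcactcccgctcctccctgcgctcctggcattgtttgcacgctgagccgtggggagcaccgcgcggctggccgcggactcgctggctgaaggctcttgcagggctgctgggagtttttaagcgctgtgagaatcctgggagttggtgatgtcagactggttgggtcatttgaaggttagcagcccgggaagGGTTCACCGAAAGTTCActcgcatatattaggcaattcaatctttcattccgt

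The element lies at chr14:16575513-16575529, from 53 to 37 bases before the start, and consists of the half-sites GGTTCA and AGTTCA with 5 bases between them. Promoter windows of 250 bases before to 50 after a start were searched on both strands for pairs, in the same orientation, of the half-site AGGTCA or its variants, which were GGTTCA, then AGTTCA, then GGGTCA. With a spacing of 5 bases such a pair was present in 0.0974% of 32851 windows. Spacings of 2 and 1 were present in 0.268% and 0.222%, and a member had neither. RefSeq windows were found for 8 of the 9 members, 18 in all, with Crabp2 not matched. Alone, AGGTCA was present in windows of 3 members (Rara, Rarg, Rxra) and in 16.3% of all windows, and GGTTCA in windows of 2 (Rara, Rarb) and in 10.4%. These single half-sites overlap the pairs that contain them. None of the 3 windows of Dhrs3 held AGGTCA or GGTTCA.

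Cyp26a1, a retinoic acid degrading enzyme, is shown beside Rarb because its window also held a pair at a spacing of 5, here read on the opposite strand (plus strand of the gene shown, chr19:37697752-37697807).

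Cyp26a1: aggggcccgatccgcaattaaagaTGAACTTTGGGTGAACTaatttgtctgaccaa

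Counted from the 5′ end of each element in its own orientation, the elements of Rarb and Cyp26a1 were identical at 15 of 17 positions and differed by G1A and G9C. A match of letters is a description of the promoter and not a measured binding site. The pair at a spacing of 5 occurred in the windows of 31 genes, of which 11 had a probe set and 4 were measured. Of these 4, chosen after the values of Rarb were known, Rarb and Blvrb, a biliverdin reductase with signals of 260 without and 88.2 with CHIR99021, were at least 2-fold lower, where 18.4% of all measured genes were. Rarb prompted the choice of this list, so the count supports nothing. Cyp26a1 had signals of 3.74 without and 0.43 with CHIR99021, both below background.

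The values are MAS5 signals, a summary of probe brightness on a linear scale. A background floor was set on each array from 80 probe sets of olfactory and vomeronasal receptors, genes assumed silent here, as their 95th percentile: 19.2 without and 12.7 with CHIR99021. A probe set above the floor on at least 1 array is called measured, and where 1 array lay below its floor the ratio is only a limit, given as "at least". Every log2 ratio sets the signal with CHIR99021 over that without it. The array with CHIR99021 was dimmer in general: 76.4% of the 11356 genes above the floor on both arrays had a lower signal there, and their median log2 ratio was -0.40. It was -0.48 for those with a mean signal (averaged on the log scale) of 20 to 300, where Rarb, Rarg, Rxra and Dhrs3 lie. For those at 1000 or more it was -0.16. The 3' to 5' signal ratios, a sign of RNA quality or labelling, were 1.29 without and 3.18 with CHIR99021 for Actb, and 0.737 and 1.62 for Gapdh. Their part in the lower signals below was not tested. Among 5335 genes with several probe sets above the floor, the log2 ratios of probe sets of 1 gene had an SD of 0.56, a spread between probes rather than cultures.

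Rarb and the retinaldehyde reductase Dhrs3 had lower signals with CHIR99021, while Rarg and Rxra lay near the general shift of the arrays. Rara was just above background without CHIR99021 and below it with CHIR99021. Stra6 was just above background with CHIR99021 only, and Crabp1, Crabp2 and Cyp26b1 were below it on both arrays. By the brightest probe set of each gene, 2 of the 6 measured members were at least 2-fold lower and 0 were at least 2-fold higher. Across all 12917 measured genes, 18.4% were lower and 1.9% higher. Of the 12 member probe sets, 8 were measured, 3 were at least 2-fold lower and 0 higher, against 24.2% and 1.51% of all measured probe sets.

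**Figure D1:**
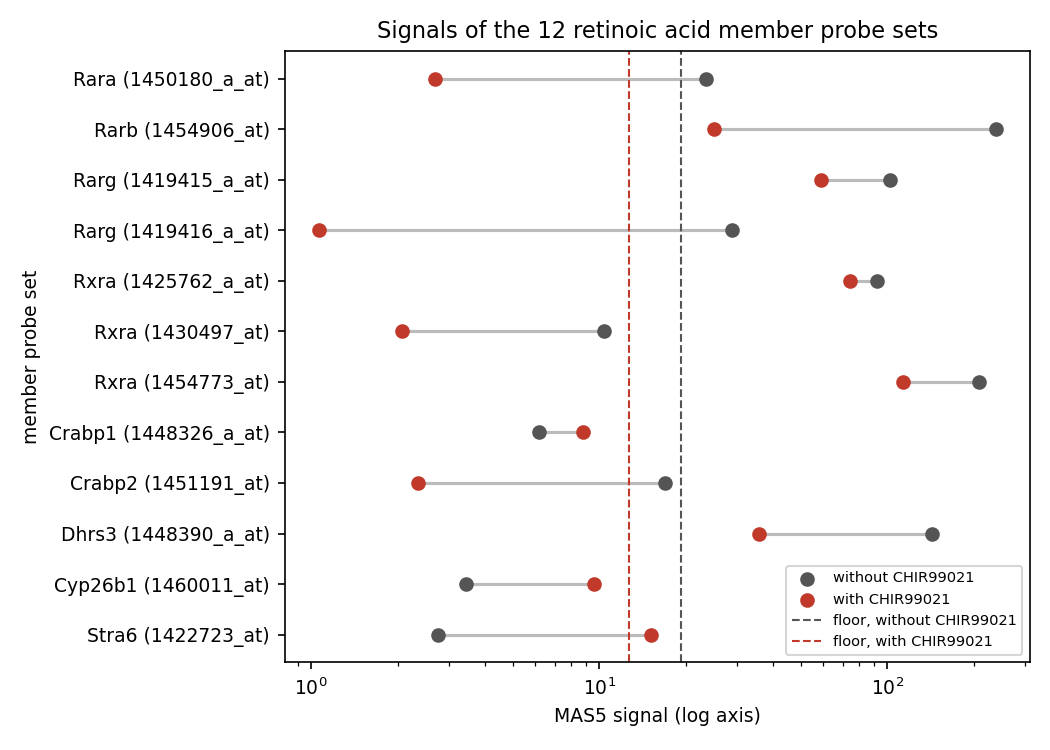
MAS5 signal (log axis) of each of the 12 member probe sets on the array without CHIR99021 (grey) and with it (red), 1 array each, so points carry no error bars; dashed lines are the floors of 19.2 and 12.7. Rarb and Dhrs3 have the widest gaps among the 5 probe sets that cleared both floors, and 4 probe sets lie below both floors.

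Among the receptors, Rarb, which encodes retinoic acid receptor beta, read 238 without CHIR99021 and 25.1 with it. It was high in the culture from which CHIR99021 had been withdrawn and only 1.97 times the floor in the other. The signal was 9.47-fold lower with CHIR99021, a log2 ratio of -3.24, and only 0.625% of the genes above the floor on both arrays had a lower ratio. After loess normalization, which removes the trend with brightness, the log2 ratio was -2.66 and 0.643% of genes lay lower. Among the 3091 genes with a signal of 100 to 300 without CHIR99021, 21% were at least 2-fold lower and 1.52% were lower by at least as much as Rarb. Rarb was read by a single probe set, so no other one could be set beside it.

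Rarg, the receptor gamma gene, was read by a pair of probe sets. The brighter one had 102 without and 58.7 with CHIR99021, a log2 ratio of -0.80, and 26% of genes had a lower one. After loess it was -0.21. This was a difference of 1.74-fold on the deposited scale, under the 2-fold threshold. The dimmer one had 28.9 and 1.06, the latter below the floor, which makes it at least 2.27-fold lower. The probe sets of Rarg thus fell on different sides of the threshold, and after loess the bound of the dimmer one was at a log2 ratio of -0.58, also under it.

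Rara, the receptor alpha gene, read 23.5 without CHIR99021, 1.23 times the floor, and 2.69 with it, below the floor. This gives a signal at least 1.85-fold lower, and after loess a bound of -0.28 on the log2 scale. So close to background, the probe set gives no more than this bound.

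Rxra encodes 1 of the Rxr partners with which Rar receptors bind DNA. Its brightest probe set had 208 without and 113 with CHIR99021, a log2 ratio of -0.88, and -0.33 after loess. A further one had 92.1 and 74.3, a log2 ratio of -0.31, which turned to 0.17 after median centring, 0.27 after loess and 0.35 after quantile normalization. The third had 10.4 and 2.06, below the floor on both arrays. No probe set of Rxra reached a 2-fold difference on any of these scales, and the direction of the second one depends on the scaling.

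Among the handling genes, Dhrs3, the reductase that returns retinaldehyde to retinol and a gene known to be induced by retinoic acid, had 143 without and 35.9 with CHIR99021. Both signals were above background, at 7.47 and 2.82 times the floor. The signal was 3.98-fold lower with CHIR99021, a log2 ratio of -1.99, with 2.98% of genes lower still. After loess the ratio was -1.41, and 3.44% of genes lay lower. Of the genes with a signal of 100 to 300 without CHIR99021, 5.44% were lower by at least as much as Dhrs3. Dhrs3, too, had a single probe set.

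The remaining handling genes gave no ratio on the deposited scale. Stra6, the retinol uptake receptor, had 2.75 without and 15.1 with CHIR99021. The latter is 1.19 times the floor of its array but lies under the floor of the other array, so no fold can be given on the deposited scale. After some scalings Stra6 was higher with CHIR99021, by a bound on the log2 scale that was under 2-fold. The bound was 0.14 after median centring, 0.26 after loess and 0.34 after quantile normalization. Scaled on bacterial hybridization controls, Stra6 still had no ratio. Crabp1, a retinoic acid carrier, had 6.19 without and 8.78 with CHIR99021. Its relative Crabp2, which passes retinoic acid to the receptors, had 16.9 and 2.35. Cyp26b1, a degrading enzyme, had 3.44 and 9.61. These signals of Crabp1, Crabp2 and Cyp26b1 are within the range of the olfactory receptor probe sets, so neither presence nor direction can be read from them.

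**Figure D2:**
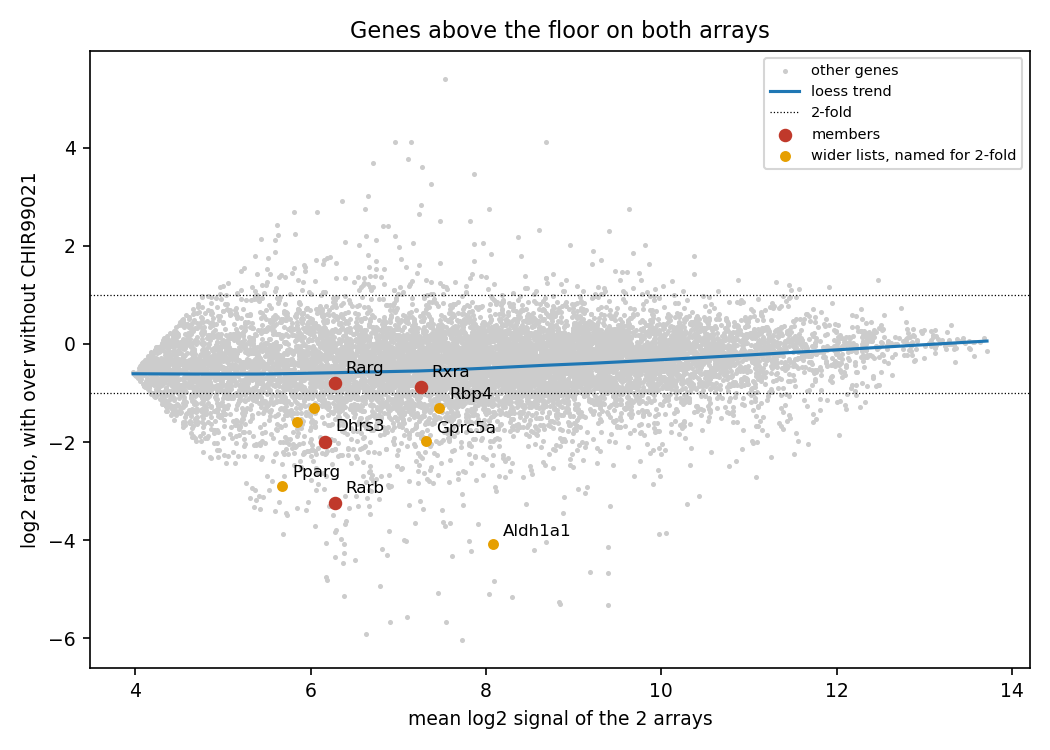
Log2 ratio (with over without CHIR99021) against the mean log2 signal for the 11356 genes above the floor on both arrays (grey), with members in red, genes of the wider retinoic acid lists named for passing 2-fold in orange and the loess trend in blue; dotted lines mark 2-fold. Rarb at -3.24 and Dhrs3 at -1.99 lie far below the trend, while Rarg at -0.80 and Rxra at -0.88 lie near it.

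The members above the floor on both arrays kept their order under the scalings tried, with Rarg and the brightest one of Rxra always close together. The ratio of Rarb ran from -3.24 on the deposited scale to -2.60 after quantile normalization, and that of Dhrs3 from -1.99 to -1.33. With each of the 4 other scalings 2 members were at least 2-fold lower and 0 higher, namely Rarb and Dhrs3. Of all measured genes, 7.14% were lower and 6.32% higher after loess, 7.39% and 5.95% after median centring, 6.43% and 7.38% after quantile normalization, and 13.7% and 2.74% when scaled on bacterial hybridization controls.

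**Figure D3:**
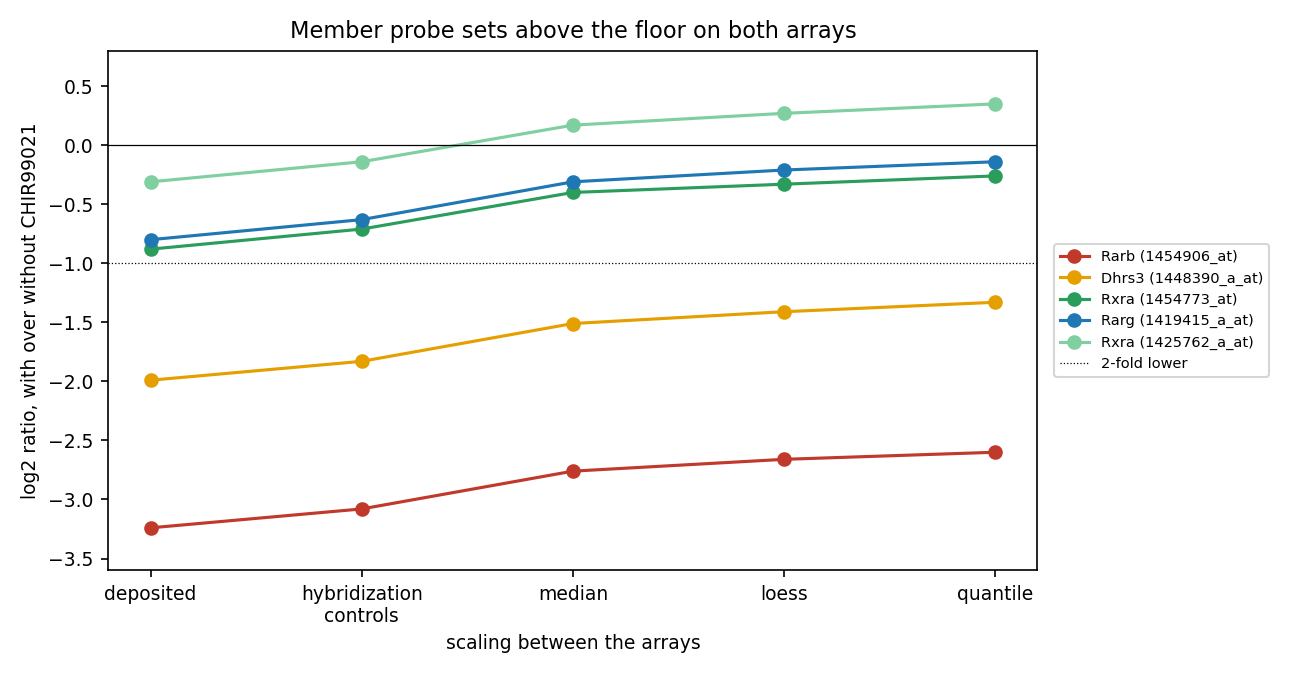
Log2 ratio (with over without CHIR99021) of the 5 member probe sets that cleared both floors, on the deposited scale and after 4 other scalings; each point is a single ratio with no error, and lines join the same probe set. Rarb and Dhrs3 stay beyond the dotted line of 2-fold under all 5, and the second probe set of Rxra crosses 0.

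The members were next set beside the rest of the pathway, in 6 wider lists of 74 genes. Of these, 64 had a probe set and 51 were measured, with 15 at least 2-fold lower and 0 higher, beside 18.4% and 1.9% of all measured genes. Part of the 15 are genes barely above the floor of 19.2 without CHIR99021 and below that of 12.7 with it. After loess, 6 of 51 were lower and 2 higher, beside 7.14% and 6.32% of all genes. For genes above the floor on both arrays the median log2 ratio was -1.44 over 4 members, -0.51 over 37 genes of the wider lists and -0.40 over all genes. After loess these medians were -0.87, -0.04 and 0.06.

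Of the synthesis genes, 3 of 10 measured were lower and 0 higher, beside 18.4% and 1.9% of all genes. After loess 2 were lower and 0 higher, beside 7.14% and 6.32% of all genes. Aldh1a1, which makes retinoic acid from retinaldehyde, was the brightest of those called, with 1107 without and 65.7 with CHIR99021, and its log2 ratio of -4.07 was -3.59 after loess. Adh7, an alcohol dehydrogenase that can oxidise retinol, had 145 without and 12.4 with CHIR99021, just under the floor, and was at least 11.4-fold lower. Its other probe set had 102 and 10.6. Rdh10, the main retinol dehydrogenase of the embryo, had nearly equal signals of 549 without and 478 with CHIR99021. A second probe set of Rdh10 had 357 and 387, a log2 ratio of 0.12. Aldh1a2, the enzyme of the lung mesenchyme, had 26.9 and 1.38, at least 2.12-fold lower, and its bound shrank to -0.47 on the log2 scale after loess. Aldh1a3 had 11.1 and 16.8, with no ratio to give. The probe sets of Rdh11, a retinal reductase, and Dhrs4, a related dehydrogenase, disagreed in size: the brighter ones had log2 ratios of -0.89 and -0.17, the dimmer ones -2.09 and -2.16. Both genes were named after their values were seen.

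Of the retinol transport and storage genes, 2 of 6 measured were lower and 0 higher, beside 18.4% and 1.9% of all genes, and 0 of 6 were lower after median centring, quantile normalization or loess. Rbp4, the retinol carrier, had 278 without and 113 with CHIR99021, a log2 ratio of -1.30 that was -0.76 after loess. Rbp2, an intestinal retinol binding protein, had 26.9 and 2.54, at least 2.11-fold lower, with a bound of -0.47 on the log2 scale after loess. Among the clearance genes only Cyp2s1 was measured, a cytochrome P450 of epithelia. It had 395 without and 0.763 with CHIR99021, at least 31.1-fold lower, and its bound after loess was -4.35 on the log2 scale.

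**Figure D4:**
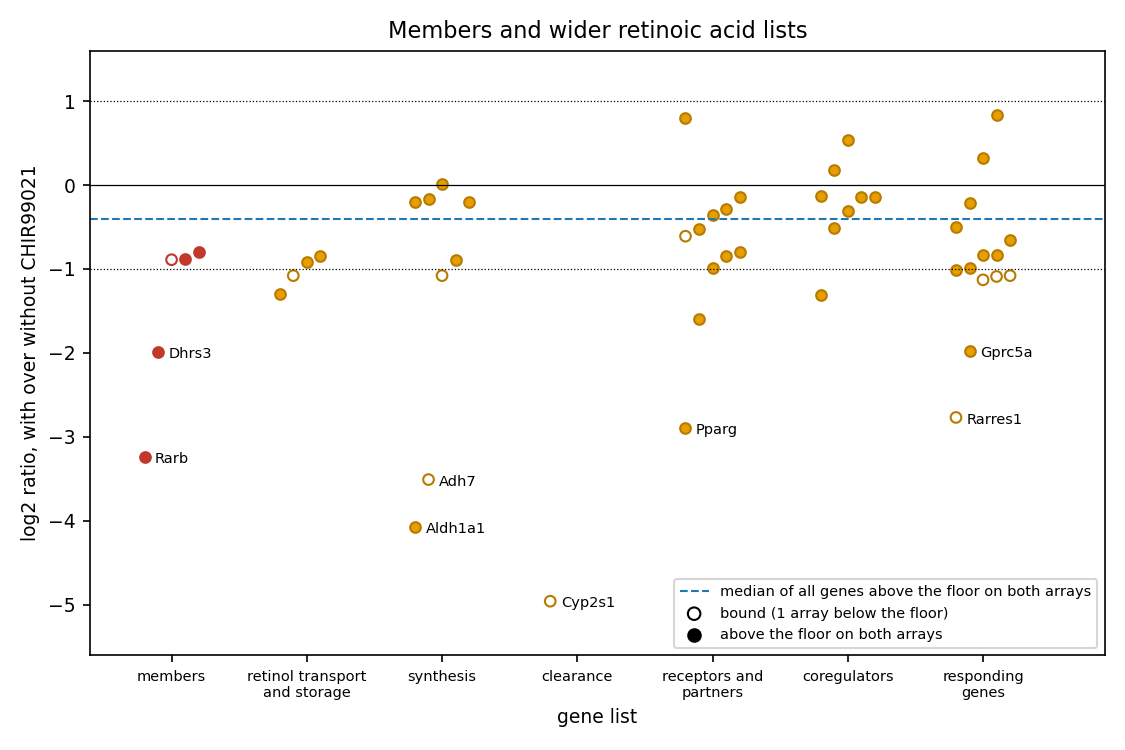
Log2 ratio (with over without CHIR99021) of each gene with a ratio, for the members (red) and 6 wider lists (orange); open circles are bounds with 1 array below its floor, the dashed line is the median of all genes at -0.40 and dotted lines mark 2-fold. Some lists hold genes far below the dashed line, such as Aldh1a1, Cyp2s1 and Pparg. Except for clearance, where Cyp2s1 is the only gene with a ratio, the lists also hold genes closer to that line. No gene reaches the upper dotted line.

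Other receptors and their partners spread from a log2 ratio of -2.89 (Pparg) to 0.80 (Nr2f6). Over the 10 above the floor on both arrays the median was -0.66, beside -0.40 for all genes. Thra, a thyroid hormone receptor gene named after its values were seen, had -0.99 by its brightest probe set, and -0.30 and -1.47 by others. Of 12 measured, 2 were lower and 0 higher, beside 18.4% and 1.9% of all genes. After loess 1 was lower and 1 higher, beside 7.14% and 6.32%. The higher one was Nr2f6, an orphan receptor named after its values were seen, with a log2 ratio of 0.80 as deposited and 1.23 after loess, while its other probe set was at -0.26 as deposited. Pparg, a lipid-sensing receptor that also pairs with Rxr proteins, had 139 without and 18.7 with CHIR99021, 7.41-fold lower, and a log2 ratio of -2.28 after loess. Ppard, its relative, had 99.7 and 32.9, 3.03-fold lower, but its log2 ratio of -1.60 fell just short of the 2-fold threshold after loess and was -0.92 after quantile normalization. The other Rxr genes were under the threshold: Rxrb had 318 without and 262 with CHIR99021, and Rxrg 31.2 and 21.7. Of 8 coregulators, 1 was lower and 0 higher, beside 18.4% and 1.9% of all genes, and after loess 0 were lower and 0 higher. The lower one was Ncoa3, a coactivator, with 103 and 41.7, and a log2 ratio of -0.72 after loess. Its other probe set had 57.1 and 43.6, under the threshold.

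Of the genes known to respond to retinoic acid, 6 of 14 measured were lower and 0 higher, beside 18.4% and 1.9% of all genes. After loess 2 were lower and 1 higher, beside 7.14% and 6.32% of all genes. Those that remained lower were Rarres1, a gene named for its induction by retinoids, and Gprc5a, a retinoic acid induced receptor of lung epithelium. Rarres1 had 86.6 without and 3.04 with CHIR99021, at least 6.81-fold lower. Gprc5a had 316 and 80.2, 3.94-fold lower, and a log2 ratio of -1.43 after loess. Stra8, a germ cell gene, and Hoxa3, a patterning gene, were bounds near the floor, at least 2.18-fold and 2.13-fold lower. So was Hoxb2, named after its values were seen, with 26.8 without and 2.99 with CHIR99021. Tgm2, a transglutaminase named after its values were seen, had 48.2 and 23.9, 2.01-fold lower. Bhlhe40, a transcription factor also named after its values were seen, went the other way, with 137 without and 243 with CHIR99021, a difference of 1.77-fold. After loess its log2 ratio was 1.36, and it was the 1 gene counted as higher.

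The treatment itself was visible in targets of Wnt signalling: Axin2 had 58.2 without and 267 with CHIR99021, Lef1 29.8 and 225, Sp5 23.3 and 101, and Lgr5 12 (below the floor) and 416. All 15 lung epithelial markers were measured, with summed signals of 58627 without and 34019 with CHIR99021. Of these, 6 were at least 2-fold lower and 0 higher on the deposited scale, beside 18.4% and 1.9% of all genes. After loess 5 were lower and 1 higher, beside 7.14% and 6.32% of all genes. Krt19, a keratin, was 14.5-fold lower. Nkx2-1, the lung identity factor, was dim, with 52 without CHIR99021, 2.72 times the floor, and 5.84 with it, below the floor. This makes Nkx2-1 at least 4.09-fold lower. Epcam, an epithelial adhesion gene, had 3846 and 3743, and Sftpc, a surfactant gene, 8808 and 8500. Foxa1 and Foxa2, factors of lung epithelium, had log2 ratios of -0.50 and -0.49, near the general shift. The part of these epithelial differences in the values of Rarb and Dhrs3 was not tested. Of 19 mesenchymal markers 9 were measured, with sums of 799 and 712. On the deposited scale 0 were past 2-fold, and after loess 0 were lower and 1 higher. Vim (257 and 245), Acta2 (199 and 194), Col3a1 (88.7 and 54.6), Col1a2 (63.8 and 49.3) and Col1a1 (24.7 and 35.8) were above the floor on both arrays. So were Dcn (29.5 and 19.7) and Tcf21 (24.1 and 13.2). Col6a3 (14.7 and 16.9) and Tbx5 (9.35 and 20.8) were above the floor only with CHIR99021. Twist1, Tbx4, Meox2 and Pdgfrb were among those below the floor on both arrays. The 8 endothelial markers summed to 180 and 208, and 3 were measured. The brightest, Esam, was higher with CHIR99021 (75.2 and 141), while Cldn5 (39 and 20.2) and Kdr (32 and 23.5) were lower. Pecam1 was below the floor. The 7 blood markers summed to 180 and 125, and 3 were measured. These were Lyz2 (74.9 and 35), Csf1r (48.4 and 54.4) and Cd68 (28.1 and 19.4), with Ptprc below the floor. The 5 neural markers summed to 55.6 and 57.3. Mesothelial markers summed to 546 and 65.4, of which Msln, also an epithelial gene, made 471 and 4.84, the latter below the floor. Of the 6 mesothelial markers 4 were measured. Besides Msln, Krt5 (38.5 and 25.2) and Upk1b (25.3 and 17.6) were above the floor on both arrays. Lrrn4 (6.36 and 14.8) was above it only with CHIR99021. The defining mesothelial genes Wt1 and Upk3b were below the floor on both arrays. In bulk RNA of this kind, fewer cells that express Rarb or Dhrs3 and less RNA per cell cannot be told apart.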

How the data were processed

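The deposited intensity values are MAS5 signals per probe set, per the submitters' processing notes, which give no version or scaling target. The trimmed means (2%) of the arrays were 204 and 151, so no common scaling to 1 mean is visible. Labelling started from 100 ng of RNA and used a 3' in vitro transcription kit, per the labels. Symbols came from the platform annotation, and Entrez identifiers of all 9 members matched a RefSeq table (GRCm38.p6). Each gene was represented by the brightest probe set (by mean log2 signal) that names it alone. With 1 array per condition, the number of arrays limits precision and no p-value was computed. The members and lists were chosen with earlier results of these data known. Named from each wider list were the genes past 2-fold with the largest ratios (at most 4), and Aldh1a1, Aldh1a2, Aldh1a3, Rdh10, Cyp26a1, Rxrb, Rxrg and Rbp4; 1 further gene of the latter group is not reported here. Alternatives were 4 scalings (loess span 0.4), other floors, an offset of 16, other probe set rules and thresholds of 1.5-fold and 3-fold. The procedure was tested on simulated data. Software was Python 3.11.15 with pandas 2.3.3, numpy 2.4.6, statsmodels 0.14.6, scipy 1.17.1 and, for plots, matplotlib 3.10.9.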

Additional observations from a re-analysis of the deposited data

How the results depend on the processing

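No paired analysis was possible because each condition had 1 array, and no array could be left out. Of the members, 2 genes and 3 probe sets were lower as reported. Without a floor, 4 genes and 6 probe sets were lower and 2 genes and 2 probe sets higher. At 1.5-fold, 5 genes and 6 probe sets were lower. Without probe sets of the suffixes _x_at, _s_at and _a_at, which removes every one of Rara, Rarg, Crabp1 and Dhrs3, 1 gene was lower and the median log2 ratio was -2.06, now over Rarb and Rxra alone. That median, -0.89 over the 5 members with a ratio, was -0.23 after quantile normalization and -0.31 after loess, where Stra6 joins as a member with a ratio. Over the same 5 members it was -0.26 and -0.33. In the wider lists, 15 genes were lower as reported, against 7 after median centring, 6 after quantile normalization, 6 after loess, 9 on hybridization controls, 23 without a floor, 26 at 1.5-fold and 7 at 3-fold. Higher were 0 as reported, against 3, 3 and 2 after median centring, quantile normalization and loess, 3 without a floor and 2 at 1.5-fold. Their median of -0.82 was -0.13, -0.05 and -0.13 after median centring, quantile normalization and loess. Median centring raises the whole array with CHIR99021 and loess mainly its dim genes, and removing the floor admits signals within background. Scaling moved the median of all genes from -0.40 to 0.08 (median centring), 0.12 (quantile), 0.06 (loess) and -0.24 (hybridization controls). Rarb had log2 ratios from -3.24 to -2.60 and Dhrs3 from -1.99 to -1.33 over the 8 alternatives of scaling and floor.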
